A study of Mus musculus with 3 samples.

Results

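The chemokines and receptors that place lymphocytes and their partner cells in the white pulp of the spleen were analyzed in islet graft-bearing spleens. They were chosen by gene name: the ligand Cxcl13 with its receptor Cxcr5, the ligands Ccl19 and Ccl21a with their receptor Ccr7, and the ligand Cxcl12 with its receptor Cxcr4. Of these 7 genes, 6 had at least 1 probe of their name among the 34797 gene names of the array, with 9 probes in all. No probe carried the name Ccl21a.

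The recipients were male C57BL/6J mice made diabetic with streptozotocin, which destroys the insulin-producing beta cells, and into each went 25 syngeneic islets by splenic puncture and 100 under the kidney capsule (SP25+KC100). The paper and the treatment text of the labels give both grafts for all 3 samples, but the individual sample labels name the capsular graft for Sample 3 alone, so a difference in that graft between Sample 3 and the others cannot be told apart from the day. Sample 1 was spleen taken on day 0, right after transplantation. Sample 2 was taken on day 2. Sample 3 was taken on day 139, after nephrectomy on day 100 had taken out the capsular graft. Each day had 1 array, and the number of mice behind each was not given in the sources used here. All 3 spleens had been punctured, carried islets and came from recipients made diabetic with streptozotocin. None of the 3 arrays was of a spleen without islets. The paper places transplantation 3 days after streptozotocin and reports that its SP25+KC100 recipients became normoglycemic. It does not give the blood glucose of the mice behind these arrays. The time since surgery and since streptozotocin, the age and blood glucose of the recipients and the nephrectomy cannot be told apart for Sample 3.

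In the spleen, follicular stromal cells and follicular dendritic cells make Cxcl13, and B cells follow it into follicles with the receptor Cxcr5. Fibroblastic reticular cells of the T cell zone make Ccl19 and the Ccl21 proteins, which draw T cells and mature dendritic cells through Ccr7. Cxcl12 is made by perivascular, red pulp and bone marrow stroma and holds plasma cells, neutrophils and precursors that carry Cxcr4. Lymphotoxin from lymphocytes, received by the lymphotoxin beta receptor on stroma, keeps the genes for Cxcl13, Ccl19 and Ccl21 switched on.

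A ratio divides the quantile-normalized signal of 1 array by that of another. A probe was called higher at a ratio of at least 1.5 with a Z-score of at least 2, and lower at a ratio of at most 0.66 with a Z-score of at most -2. The Z-score divides the log2 ratio by the spread of the 1000 detected probes nearest in signal. Without replicates no test was possible, so the scanner software's error for a spot is given in place of an error between animals. It was close to 10% of every signal of these genes and came to 0.20 on the log2 scale for a ratio. All 9 probes, and both probes for Ccl21 copies described next, were well above background on all 3 arrays and none was saturated.

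Mouse Ccl21 has several nearly identical copies, and the array had 2 probes that list their transcripts. The probe named Gm1987 listed transcripts of Ccl21a, Gm1987, Gm13304 and Gm10591. The probe named Gm13304 listed transcripts of Ccl21b, Ccl21c, Gm13304 and Gm10591. Over the 56 bases where they overlap, 54 were the same, with the differences C6T and A50G counted from the 5′ end of the Gm13304 probe, whose base comes first. The stretches around the second difference are shown because the 2 probes differ there, and the capital marks A50G.
Gm13304 probe: atacctaactgaataaaaaAgtgatccagc
Gm1987 probe: atacctaactgaataaaaaGgtgatccagc
With 2 differences in 56 bases, RNA of each copy may bind both probes, so the copies could not be separated and the values are those of the Ccl21 group. The Gm1987 probe stands for Ccl21a below because it lists that transcript, a choice made after its values were seen.

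Both Cxcl12 probes are shown as well, because the array's annotation lists them under different transcript variants and their ratios differed. The ends of the Cxcl13 and Cxcr5 probes follow, since these genes carry most of the calls. Each line is the last 30 bases of a probe of 60, and no base is marked.
Cxcl12, transcript position 5510: tgctttcttattcttatttttaatatatga
Cxcl12, transcript position 1816: tatttacctgaaataaaatctactagttgt
Cxcl13: aattgaaagatcctcagcttaaaggtccag
Cxcr5: tatcctcattgcagaaccgtgaagacacct

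Of the 6 genes, 1 was called higher and 1 lower in Sample 3 over Sample 1. These were Cxcr5 and Cxcl12. Over all 32108 detected probes, 2.52% were called higher and 2.21% lower in that comparison. By the ratio alone, 3 of the 6 were higher (Cxcr5, Ccl19 and Ccr7) and 1 was lower, against 12.8% and 14.7% of all detected probes. In Sample 3 over Sample 2, Cxcl13 and Cxcr5 were called higher and 0 of the 6 lower, against 2.39% and 1.77%. The ratio alone added Ccr7 for 3 of 6 higher and left 0 lower, against 12.4% and 14.4%. In Sample 2 over Sample 1, 0 of the 6 were called higher and 2 lower, Cxcl13 and Cxcl12, against 1.91% and 2.55%. The ratio alone gave the same 0 and 2, against 10.1% and 10.4%. Sets of 6 genes are small, and each pair of comparisons shares an array, so a low or high value in 1 sample enters both.

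**Figure D1:**
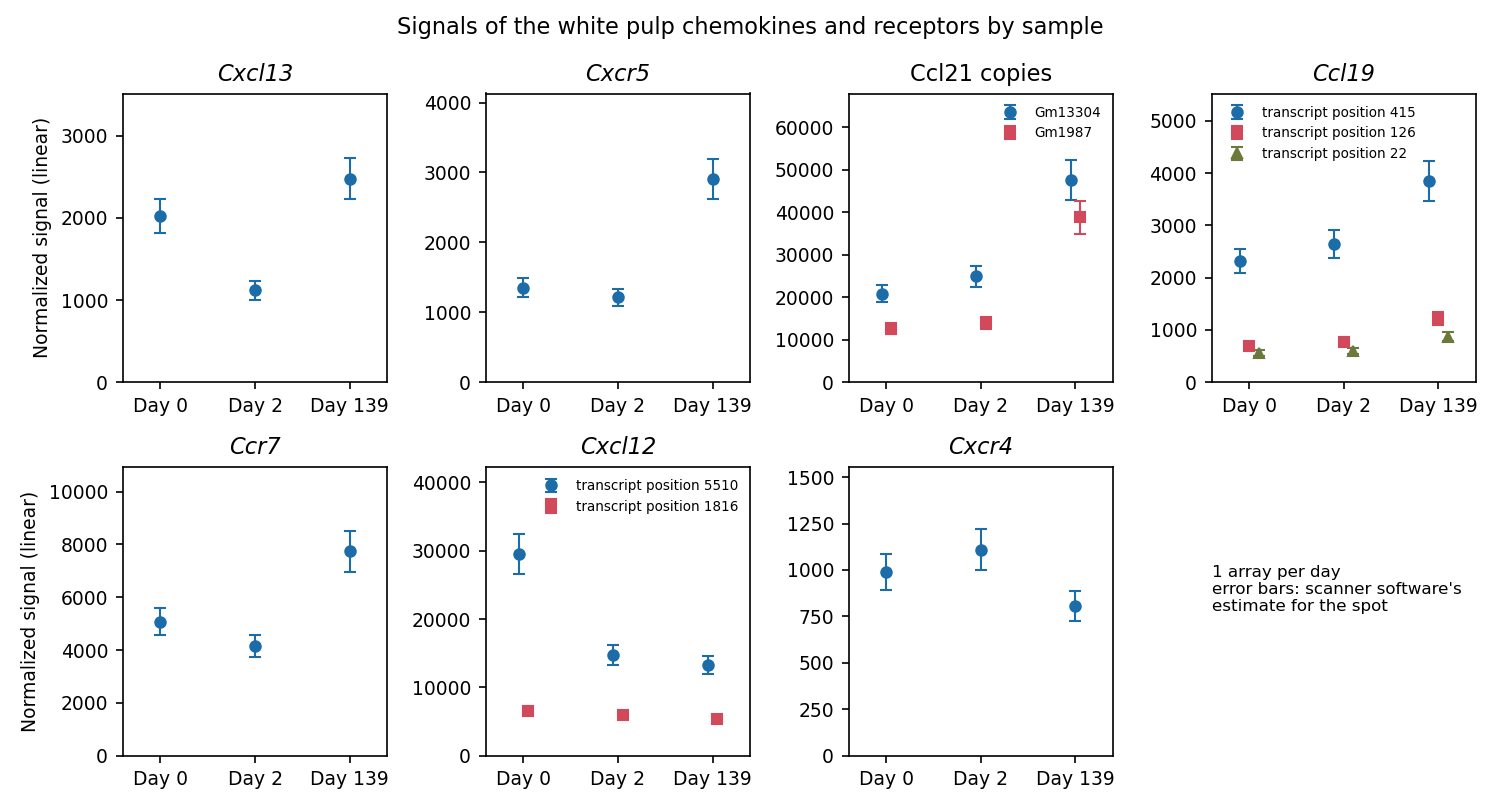
Normalized signal on a linear scale from 0 for each probe on day 0, day 2 and day 139, with 1 array per day and bars for the scanner software's spot error. Cxcl13 was lowest on day 2, Cxcr5, Ccr7, Ccl19 and the Ccl21 probes were highest on day 139, and the Cxcl12 probe at transcript position 5510 was highest on day 0.

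Cxcl13, the B cell attracting chemokine of follicles, had a normalized signal of 2025 on day 0, 1118 on day 2 and 2478 on day 139 (chr5:96389861-96389920 of mm9, + strand). The day 2 spleen was thus the low sample. Day 2 had a ratio of 0.552 to day 0 (Z-score -2.18), past both limits. Day 139 had a ratio of 2.22 to day 2 (Z-score 2.05), also past both limits. Between day 139 and day 0 the ratio was 1.22 (Z-score 0.53), which passed neither. Both calls rest on the single day 2 array. The call of day 139 over day 2 was lost under 75th percentile scaling (log2 ratio 1.12), and that of day 2 over day 0 with ratio limits of 2 and 0.5.

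Cxcr5, the receptor for Cxcl13 on follicular B cells and follicular helper T cells, had signals of 1353, 1215 and 2908 on days 0, 2 and 139 (chr9:44320071-44320130, − strand). Day 139 stood above both early samples, which lay within the spot error of each other (log2 ratio -0.16, error 0.20). Sample 3 exceeded Sample 1 by a ratio of 2.15 (Z-score 2.05) and Sample 2 by a ratio of 2.39 (Z-score 2.20). The call over Sample 1 was lost with a Z-score window of 250 probes and with normexp background correction, where the log2 ratio was 1.05. The receptor was therefore high only in the late spleen among these 3 arrays, while its ligand was lower on day 2 than on either other day.

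The Ccl21 probes had the largest ratios of day 139 to day 0 among the probes analyzed, and the Gm1987 probe also had the largest to day 2. The Gm1987 probe (chr4:42232117-42232176, + strand) read 12608 on day 0, 13916 on day 2 and 38801 on day 139. Set against day 0, the day 139 signal gave a ratio of 3.08 (Z-score 3.08), and against day 2 a ratio of 2.79 (Z-score 3.04). Days 0 and 2 differed by 0.14 on the log2 scale, less than the spot error.

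The Gm13304 probe (chr4:41775274-41775333, + strand) read 20877, 24919 and 47588 on the same days. Sample 3 was again the high sample, with a ratio of 2.28 to day 0 (Z-score 2.28). Relative to day 2 the ratio was 1.91 and the Z-score 1.96, so that only the ratio passed. The log2 ratio of this probe was smaller than that of the Gm1987 probe by 0.43 for Sample 3 over Sample 1 and by 0.55 over Sample 2, with a spot error of 0.29 for each difference. The chromosome positions are those printed on the array, and for copies this alike they name 1 of several matching places.

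Ccl19, which shares the receptor Ccr7 with Ccl21, was read by 3 probes. The brightest (chr4:42250105-42250164, + strand, transcript position 415) had signals of 2314, 2644 and 3846 on days 0, 2 and 139. Day 139 was the high sample, with ratios of 1.66 to day 0 and 1.45 to day 2. The Z-scores of 1.22 and 0.86 stayed under the limit. The probe at chr4:42248526-42248585 read 553, 596 and 872. The probe at chr4:42248630-42248689 read 701, 775 and 1216. Counted from the RefSeq start of the gene, the first bases of these 2 probes were at -131 and -27. Both thus begin upstream of that start, and whether all 3 probes read the same transcript was not tested. The 3 probes gave log2 ratios of 0.66 to 0.80 over Sample 1 and 0.54 to 0.65 over Sample 2, and they differed among themselves by less than the spot error. None of the 3 separated day 2 from day 0 beyond that error.

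Ccr7, the receptor that T cells and mature dendritic cells use to enter the T cell zone, had signals of 5075, 4172 and 7735 (chr11:99005551-99005610, − strand). Day 139 was again the highest, and day 2 the lowest. Relative to day 0 its day 139 ratio was 1.52 (Z-score 1.08) and relative to day 2 it was 1.85 (Z-score 1.49), so the ratio limit was passed and the Z-score limit was not. Day 2 to day 0 gave a ratio of 0.822 (Z-score -0.63).

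Cxcl12, the stromal chemokine read by Cxcr4, differed between its probes. The brighter probe (chr6:117131227-117131286, + strand, transcript position 5510) read 29485 on day 0, 14748 on day 2 and 13266 on day 139. Day 0 was the high sample, and days 2 and 139 lay within the spot error of each other (log2 ratio -0.15). Against day 0, day 139 gave a ratio of 0.450 (Z-score -2.15) and day 2 a ratio of 0.50 (Z-score -2.17).

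The other Cxcl12 probe (chr6:117125026-117125085, transcript position 1816) read 6575, 5957 and 5344, and its ratios of 0.813 (day 139) and 0.906 (day 2) to day 0 passed no limit. The 2 probes thus differed in log2 ratio by -0.85 for Sample 3 over Sample 1 and by -0.86 for Sample 2 over Sample 1, with a spot error of 0.29. For Sample 3 over Sample 2 they differed by 0.00. The calls of lower Cxcl12 therefore came from the probe at position 5510 alone and rest on the day 0 array. With normexp both calls were lost at log2 ratios of -1.06 and -0.95, and with the median over both probes at -0.73 and -0.57. Scaled to the spike-in controls, the brighter probe was still lower in Sample 3 than in Sample 1 (log2 ratio -0.79) but was no longer called, and its small difference from Sample 2 changed sign to 0.16.

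Cxcr4, the Cxcl12 receptor on plasma cells, neutrophils, lymphocytes and precursors, had signals of 989, 1108 and 804 (chr1:130485079-130485138, − strand). Day 139 was the lowest sample in these values. Day 139 had ratios of 0.813 to day 0 and 0.726 to day 2, and day 2 one of 1.12 to day 0, and 0 of the 3 passed a limit. Its log2 ratio of -0.30 for Sample 3 over Sample 1 became 0.11 when the arrays were scaled to the spike-in controls, so its direction there is not settled.

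**Figure D2:**
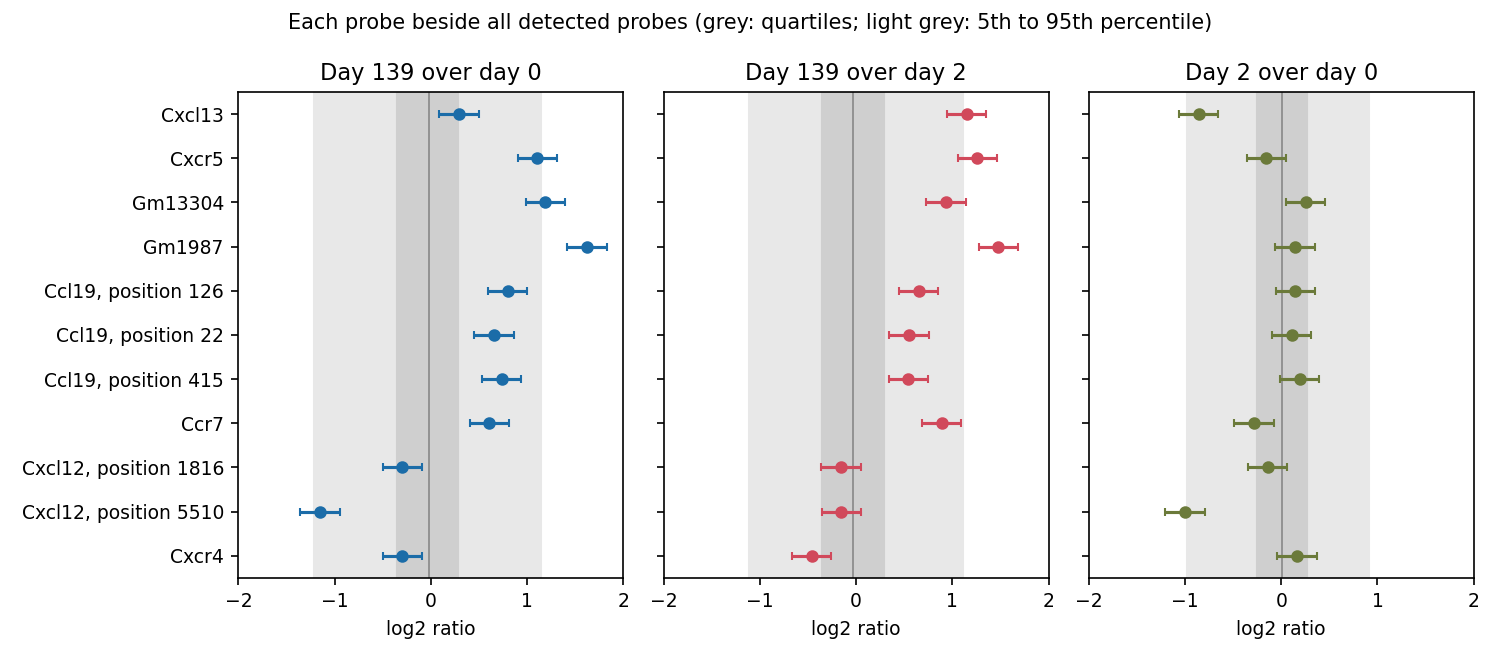
Log2 ratio of each probe (points, with the spot error as bars) in the 3 comparisons, beside the quartiles and the 5th to 95th percentile range of all 32108 detected probes in grey. The Gm1987 probe lay above the 95th percentile in both day 139 comparisons, whose values were 1.14 and 1.11, and the Cxcl12 probe at position 5510 lay below the 5th percentile of -0.98 on day 2 over day 0.

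In the deposited value table, ligand and receptor ran in the same direction in 4 of 4 pairs for Sample 3 over Sample 1 and for Sample 3 over Sample 2. Scaled to the spike-in controls, 3 of 4 pairs did so in each, without Cxcl12 and Cxcr4. For Sample 2 over Sample 1 the direction was shared in 1 of 4, Cxcl13 and Cxcr5. In each of those 4 pairs 1 partner lay within the spot error (Cxcr5, Ccl19, the Ccl21 probe and Cxcr4), so its sign is not settled. The same held for Cxcl12 in Sample 3 over Sample 2. The counts of shared directions are limited by this. With 3 arrays no correlation was computed. The Ccl19 and Ccl21 pairs share the receptor Ccr7, so they are not separate in that respect.

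The sizes differed within pairs. For Sample 3 over Sample 1 the log2 ratio of Cxcl13 was 0.81 below that of Cxcr5. For Sample 3 over Sample 2 the gap was 0.11, so the follicular pair stood out together against day 2 only. The Ccl21 probe exceeded Ccr7 by 1.02 over Sample 1 and by 0.59 over Sample 2. Ccl19 differed from Ccr7 by 0.12 and -0.35. The brighter Cxcl12 probe lay 0.85 below Cxcr4 for Sample 3 over Sample 1 and 1.16 below it for Sample 2 over Sample 1. In the latter comparison that probe was lower and the receptor was within its spot error.

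**Figure D3:**
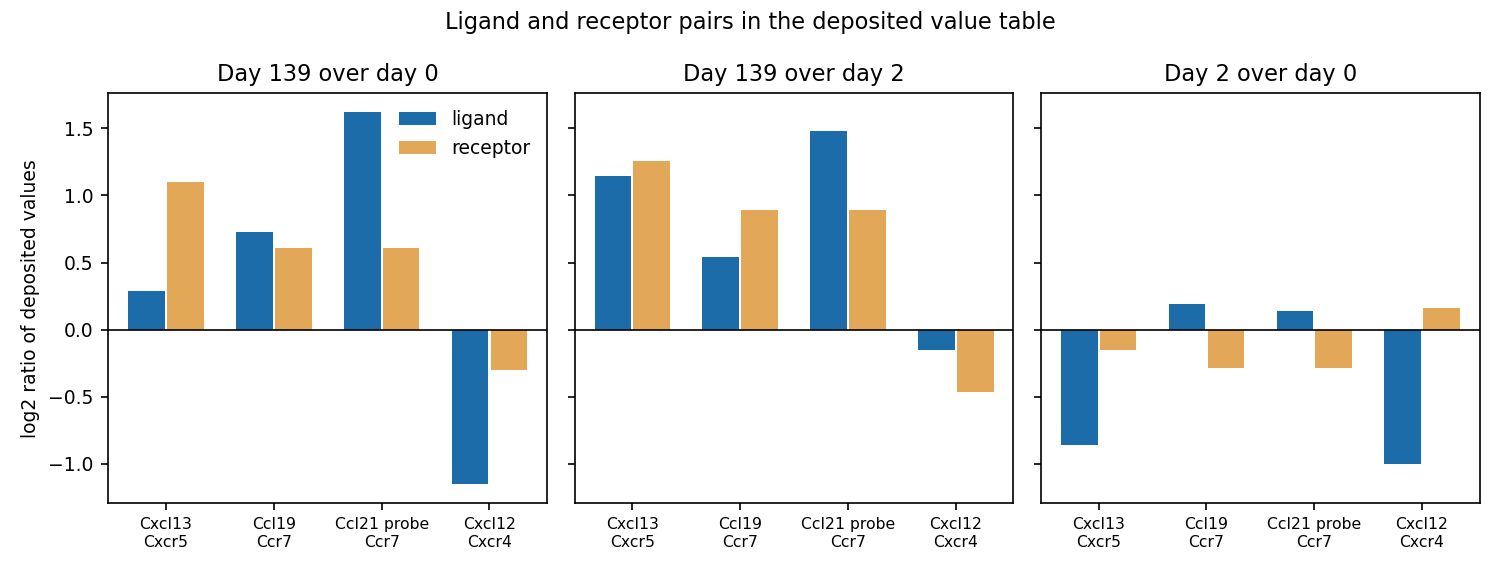
Log2 ratios of each ligand (blue) and its receptor (yellow) from the deposited value table, 1 panel per comparison and 1 array per day, with bars from 0. In both day 139 panels the bars of each of the 4 pairs point the same way, while on day 2 over day 0 only those of Cxcl13 and Cxcr5 do. On day 2 over day 0 the values of Cxcr5, Ccl19, the Ccl21 probe and Cxcr4 were within the spot error. That of Cxcl12 was within it on day 139 over day 2.

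Genes that mark the cells carrying these molecules were set beside them. In bulk tissue, fewer cells of a type and less RNA per cell cannot be told apart. All 10 B cell markers were well above background on all 3 arrays. Their signals summed to 49126 on day 0, 48621 on day 2 and 91263 on day 139, and 10 of 10 were higher in Sample 3 than in each early sample, with medians of 0.93 and 0.98 on the log2 scale. Of the 10, 4 were called higher in each of these comparisons. The medians of all 22851 detected genes were 0.00 and -0.03, and 49.6% and 47.5% of them were higher. Among those genes, 685 were called higher and 559 lower for Sample 3 over Sample 1, and 639 and 449 over Sample 2. For Sample 2 over Sample 1 these calls numbered 503 and 658. The log2 ratio of Cxcr5 exceeded the B cell medians by 0.17 and 0.28. That of Cxcr4, which B cells also carry, fell short of them by 1.23 and 1.44.

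T cell markers, all 10 well above background throughout, summed to 15498, 20599 and 28846 on days 0, 2 and 139. They too were higher in 10 of 10 on day 139, with medians of 0.90 over Sample 1 and 0.55 over Sample 2. On day 2 over day 0 all 10 were higher as well, with a median of 0.31, where 52.8% of all detected genes were higher. In every comparison 0 of 10 were called. Ccr7 differed from these medians by -0.29, 0.35 and -0.60. From the B cell medians it differed by -0.32, -0.08 and -0.30 in the same comparisons. On day 2 it was the T cell list that was higher, and Ccr7 that was lower. The 8 dendritic cell markers had medians of 0.04 and 0.19 for Sample 3 over Samples 1 and 2, and 0 of 8 were called. The part of cell composition in the Cxcr5 and Ccr7 values was not tested.

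Stromal markers moved less together. The 8 genes of follicular dendritic and marginal reticular cells, the Cxcl13 sources, summed to 52013, 60046 and 70104, of which Mfge8 alone read 40850, 49287 and 54791. The list had day 139 medians of 0.47 to day 0 and 0.62 to day 2, and 7 of 8 were higher in each, with 0 called. On day 2 over day 0 the list median was -0.11, and Cxcl13 lay 0.75 below it. The 10 reticular stroma markers were spread from -1.49 to 1.48 for Sample 3 over Sample 1, with 2 called in each direction. Among all 22851 detected genes these calls numbered 685 higher and 559 lower. The median of the reticular markers was 0.29, which the Ccl21 probe exceeded by 1.33 and Ccl19 by 0.45. On day 2 the collagen genes Col1a1 and Col3a1 of that list were higher by 3.25 and 3.52 on the log2 scale than on day 0, whereas both Ccl21 and Ccl19 were within their spot error for the probes used in the pairs.

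Cxcl12 was set beside the lists of endothelium and reticular stroma, which were chosen as possible sources and not by their values. Endothelial markers had medians of -0.36 for Sample 3 over Sample 1 and -0.59 for Sample 2 over Sample 1, with 6 of 8 lower in each and 7 of 8 well above background on every array, and summed to 29138, 28698 and 23697. Scaled to the spike-in controls, the first median became 0.04 with 4 of 8 lower and the second -0.64 with 6 of 8 lower. Before that scaling the brighter Cxcl12 probe lay 0.80 and 0.41 below the 2 endothelial medians. It lay 1.44 and 1.31 below the reticular stroma medians, which were 0.29 and 0.31. The other Cxcl12 probe, with log2 ratios of -0.30 and -0.14, lay above both endothelial medians and below both reticular ones. Within the reticular list the platelet-derived growth factor receptor genes Pdgfra and Pdgfrb, carried by stromal fibroblasts, had log2 ratios of -1.49 and -1.08 for Sample 3 over Sample 1. Pdgfra was called lower in both comparisons with day 0, whereas Pdpn (1.48 and 1.29) and Dpt (1.23 and 1.28) of the same list were called higher in both. On day 2 over day 0, 4 of the 10 were called higher and 1 lower, so the list had no common direction. Calls among all 22851 detected genes were 503 higher and 658 lower there, and 685 and 559 for Sample 3 over Sample 1. The 10 neutrophil markers had medians of 0.07 for Sample 3 over Sample 1 and -0.27 for Sample 2 over Sample 1, with 6 and 5 of 10 higher. Of these, S100a8, S100a9, Cxcr2 and Retnlg were called lower in both comparisons and 0 were called higher, while Camp (0.72), Ltf (0.45), Elane (0.44), Ngp (0.38), Mpo (0.11) and Ly6g (0.04) had positive log2 ratios for Sample 3 over Sample 1. The part of neutrophils in the Cxcl12 and Cxcr4 values was not tested.

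**Figure D4:**
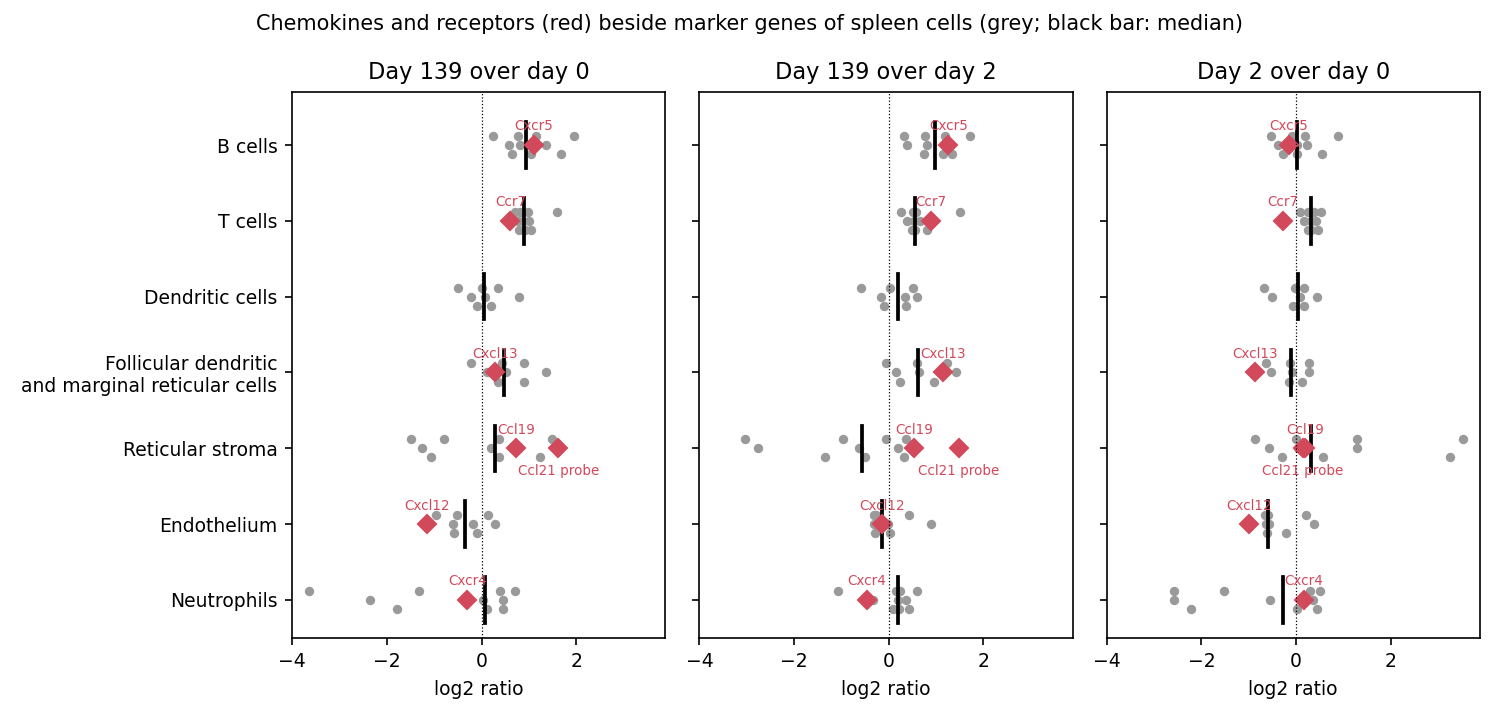
Log2 ratios of marker genes of spleen cell types (grey points, with the list median as a black bar) and of the chemokine or receptor set beside each list (red diamonds), 1 panel per comparison. Cxcr5 lay near the B cell median in all 3 panels, whereas the brighter Cxcl12 probe lay left of the endothelial median in both comparisons with day 0. The other Cxcl12 probe is not drawn.

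The remaining lists had values of their own. The log2 medians for Sample 3 over Sample 1 were -0.59 for erythroid cells, -0.23 for red pulp macrophages, -0.42 for spleen mesenchyme with Tlx1 and -0.99 for islet cells. Of 8 exocrine pancreas genes 7 were higher, but 4 were not well above background on days 0 and 2, and no median is given. Spike-in scaling turned the red pulp macrophage median to 0.20 and moved that of the mesenchyme to -0.01. The erythroid and islet medians became -0.18 and -0.61. Islet genes were highest on day 2, with a median of 2.06 over Sample 1. External spike-in RNA read 103% on day 2 and 65.6% on day 139 of its day 0 signal before normalization. Scaled to it, the middle of the log2 ratios of the detected probes moved from -0.02 to 0.36 for Sample 3 over Sample 1 and from -0.04 to 0.40 over Sample 2. Cxcr5 then had log2 ratios of 1.51 and 1.69 and the Ccl21 probe 2.12 and 1.91. This scaling applies 1 factor to all probes of an array and moves their ratios together. It therefore does not test where these genes stand beside the other probes.

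The upstream signal that maintains the stromal chemokines was next examined. All 10 genes of the lymphotoxin and non-canonical NF-κB list were detected. For Sample 3 over Sample 1, 8 of 10 had positive log2 ratios with a median of 0.46, and 0 were called. Of all 22851 detected genes, 49.6% were positive there, and 685 were called higher and 559 lower. The ligands lymphotoxin alpha and beta read 193, 183 and 348 (Lta) and 17889, 20744 and 34084 (Ltb) on days 0, 2 and 139. Both were highest on day 139 without passing both limits, and they are named for that after their values were seen.

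Their receptor gene Ltbr read 2275, 1205 and 1220, and it was called lower in Sample 2 over Sample 1 (log2 ratio -0.92). It thus shared the high day 0 value with Cxcl12. Map3k14, the kinase NIK of that pathway, read 1358, 733 and 1874 and was called higher in Sample 3 over Sample 2 (1.35). Its low sample was day 2, as for Cxcl13.

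Atypical receptors take up chemokines without signalling through G proteins and shape their gradients. Of the 6, 1 was called in each comparison. Calls among all 22851 detected genes were 685 higher and 559 lower for Sample 3 over Sample 1. They were 639 and 449 for Sample 3 over Sample 2, and 503 and 658 for Sample 2 over Sample 1. Ackr3, which scavenges Cxcl12, read 1590, 619 and 946 and was called lower in Sample 2 over Sample 1 (log2 ratio -1.36). Ackr4, which scavenges Ccl19 and Ccl21, read 22.4, 20.5 and 76.2, close to the lowest detectable signals on the early days, and was called higher in Sample 3 over Sample 2 (1.89). Gpr182, an endothelial atypical receptor also named Ackr5, read 5621, 3234 and 2379 and was called lower in Sample 3 over Sample 1 (-1.24).

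Among 8 further receptors only Cx3cr1, carried by monocytes and macrophages, was called. Of all 22851 detected genes, 685 were called higher and 559 lower for Sample 3 over Sample 1. The counts were 639 and 449 for Sample 3 over Sample 2, and 503 and 658 for Sample 2 over Sample 1. The gene Cx3cr1 was called in the 2 comparisons with day 0. Its signals were 1024, 2440 and 2933, higher than on day 0 in both later samples (log2 ratios of 1.52 on day 139 and 1.25 on day 2). Ccr6, a receptor of B cells and dendritic cells, read 2170, 2858 and 4917. Cxcr3, a receptor of activated T cells, read 787, 1069 and 1590. Both were highest on day 139, neither was called, and both were picked after their values were seen.

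Of 9 further ligands 6 were detected, and Ccl20, Ccl22 and Ccl28 were not. Cxcl14 read 17.8, 87.5 and 77.8 and was called higher than day 0 in both later samples (2.30 on day 2 and 2.13 on day 139). Its day 0 value was close to the lowest signal well above background on that array, 12.9, so both ratios divide by a value near the floor. Ccl17, a ligand of Ccr4 made by dendritic cells, read 213 on day 0 and 38.6 on day 2, and was not well above background on day 139. It was called lower in both later samples, with a log2 ratio of -2.46 on day 2 and a difference of at least 11.1-fold on day 139. Of all 22851 detected genes, 685 were called higher and 559 lower on day 139 over day 0, and 503 and 658 on day 2 over day 0.

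Oxysterols and sphingosine 1-phosphate steer lymphocytes alongside the chemokines, and all 10 genes of that list were detected. Ch25h, which makes the precursor of the Gpr183 ligand that positions B cells and dendritic cells, read 339, 165 and 88.7 and was called lower in Sample 3 over Sample 1 (-1.94). S1pr2, the sphingosine 1-phosphate receptor that confines germinal center B cells, read 64.4, 131 and 235 and was called higher in that comparison (1.87). The 2 calls were in opposite directions, and the list median was 0.19. In that comparison 685 of all 22851 detected genes were called higher and 559 lower.

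**Figure D5:**
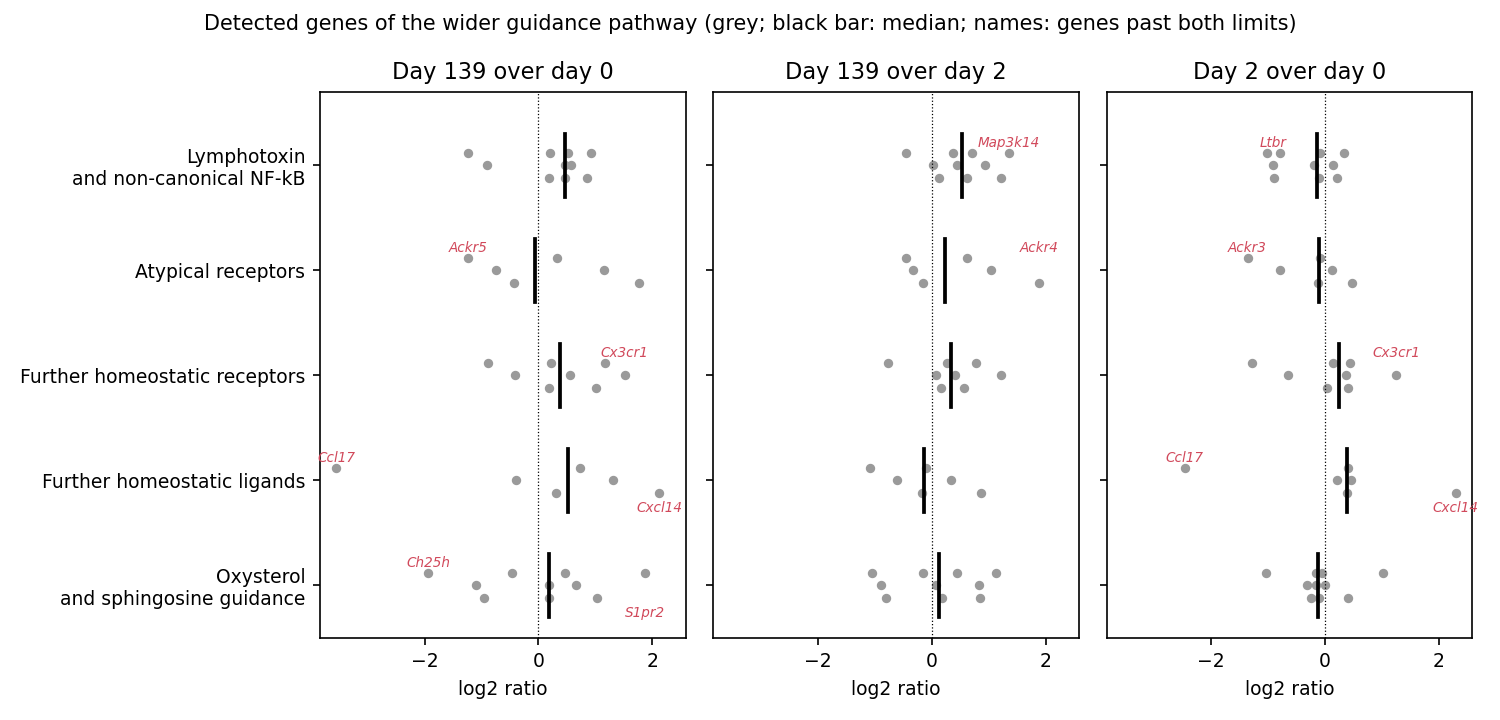
Log2 ratios of the detected genes of 5 lists around the white pulp chemokines (grey points, with the list median as a black bar), 1 panel per comparison, with the names of genes past both limits. Ltbr and Ackr3 stand at the low end of their lists on day 2 over day 0, and Map3k14 and Ackr4 are the genes called on day 139 over day 2.

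The genes with the most similar course over the 3 samples were found by the root mean square difference of centred log2 signals, over 19799 genes well above background on all arrays. With only 3 samples many genes run alike, so the count of genes within 0.1 is given for each. For Cxcl13 these were Zfp58, Gm3604 and Sowahc, with 68 genes within 0.1. For Cxcr5 the nearest were Endou and Kcnk5, with 85 genes. The Ccl21 probe had 36 genes, led by the T cell receptor subunit gene Cd247 with Sdcbp2 among the first 3, and Cxcl12 had 73, led by 1810033B17Rik. By contrast 672 genes were as near to Ccl19 (led by Sdr39u1, Cubn and Impg1), 312 to Ccr7 (Hes5 and Lysmd2) and 1934 to Cxcr4 (Pgm1, Pgrmc2 and St3gal2). The smaller counts belong to the genes with the larger ratios.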

How the data were processed

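Spleen RNA of 3 samples was hybridized, 1 array each, to one-colour Agilent 8x60K arrays. The authors deposited scanner intensity values and 1 table of quantile-normalized intensity values. Feature Extraction is version 10.7.1.1 in the file headers and 9.5.1.1 in the submitters' processing notes. Replicate spots were averaged after control and outlier spots were left out, and 55679 probes were quantile normalized, floored at 1 and log2-transformed. A probe counted as detected if 1 or more arrays flagged it well above background, as 50.4% to 54.4% were per array. The limits on ratio and Z-score are the study's; its methods give no formula for the Z-score. The brightest probe stood for a gene. The deposited values of the member probes lay within 0.0014 of these on the log2 scale. The plan assumed a probe named Ccl21a. The pairs came from the deposited table. Precision is limited by the number of arrays, so no p-value was computed. Named are all members, the 3 genes nearest to each (those with a gene symbol), and of each pathway list the genes called, beside those marked as chosen later. The markers and lists came from general knowledge, and the members and lists were chosen with earlier results of these data known. Gene names are those of the array, and 22290 of 34797 matched RefSeq (GRCm38.p6); probe positions are mm9, with no exon or coding boundaries used here. Alternatives were normexp (offset 50, limma 3.58.1, R 4.3.3), other scalings, filters and limits. The call rule was also run on simulated data with planted changes larger than those of any member, so that run does not bear on calls near the limits. Python 3.11.15 with numpy 2.4.6, pandas 2.3.3 and matplotlib 3.10.9 was used.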

Additional observations from a re-analysis of the deposited data

How the results depend on the processing

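With 1 array per day, no spread between animals can be set against any ratio. No paired analysis was possible because each group has 1 sample. For Sample 3 over Sample 1, the 2 calls (Cxcr5 and Cxcl12) became 1 under spike-in scaling (Cxcr5), 1 with the median over the probes of a gene (Cxcr5), 1 with a Z-score window of 250 probes (Cxcl12), 0 with normexp background correction and 4 by the ratio alone. For Sample 3 over Sample 2, the 2 calls became 1 under 75th percentile scaling (Cxcr5) and 3, with Ccr7, under spike-in scaling, a scaled median absolute deviation and the ratio alone. For Sample 2 over Sample 1, the 2 calls (Cxcl13 and Cxcl12) became 1, Cxcl13, under 75th percentile scaling, normexp, the median over probes and the window of 250 probes, and 0 with ratio limits of 2 and 0.5. The cause was not tested. With the Ccl21a-listing probe counted as a further gene, chosen after seeing the data, the calls numbered 3, 3 and 2. Of 165 log2 ratios of single genes under an alternative, 144 kept their size and side of the limits, and 2 changed sign, both under spike-in scaling. The deposited values, the floor, detection on all arrays and the kept outlier spots could hardly move these well detected probes. The median over probes cannot move a gene with 1 probe. The count of 144 includes these and does not measure how firm the ratios are.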
